A study of Mus musculus with 2 samples.

Results

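The secretory lineage transcription factors examined here were Atoh1, Spdef, Gfi1, Foxa3, Creb3l1, Creb3l4 and Bhlha15. They were chosen by name as known regulators of the intestinal secretory lineage, with earlier results of these data known. All 7 were found among the 27998 genes of the matrices. Their RNA was read in single cells from jejunal crypts of 2 male 375KO mice, 12 months old, with 1 library per mouse (replicate 1 and replicate 2). Both mice carried a CRISPR/Cas9 deletion of miR-375 in the whole body (strain C57BL6/2J in the labels). According to the methods the deletion was made in hybrid embryos with FVB parentage, and the line was backcrossed to B6 albino mice. No wild-type library was analysed here, so every comparison is between cell types of 375KO mice and none measures an effect of miR-375.

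In the crypt, stem cells give rise to transit-amplifying (TA) cells, which become absorptive enterocytes or secretory cells. Notch signalling between neighbouring cells sets this choice: a cell that escapes Notch expresses Atoh1 and presents Notch ligands such as Dll1 and Dll4, while its neighbours express the repressor Hes1. Downstream of Atoh1, Gfi1 and Spdef favour goblet and Paneth fates, and factors such as Creb3l1, Creb3l4 and Bhlha15 are linked to the secretory machinery that mucus and granule proteins pass through.

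The kept cells numbered 2082 in replicate 1 and 1193 in replicate 2, with a median of 16475 and 15232 UMIs (unique molecular identifiers, which count captured RNA molecules). The deposited annotation places them in 10 types. Numbers for replicate 1 and replicate 2 were 139 and 117 stem cells, 320 and 323 TA cells, 931 and 382 enterocytes, 31 and 19 secretory progenitors, 162 and 84 goblet progenitors, 277 and 138 goblet cells, 78 and 54 Paneth cells, 54 and 20 enteroendocrine cells (EEC), 40 and 38 tuft cells, and 50 and 18 intraepithelial lymphocytes (IEL). Of 52 marker genes examined, 47 were highest in their own type in both mice. Atoh1, listed as a marker of secretory progenitors, was an exception and was highest in goblet cells. The other exceptions were the TA markers Pcna, Mcm4 and Stmn1, highest in other types, and the stem marker Ascl2, highest in tuft cells. No barcode was shared by the kept cells of both libraries. Because the authors assigned the types from these same expression values, differences between types only describe how far the annotated classes stand apart.

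Levels are given as UMIs on a counts-per-million scale (CPM) within a type of 1 library, with exact 95% Poisson intervals that cover counting error only. Free RNA was subtracted according to the methods, so a level of 0 may be a count of 0 or may be left by that subtraction, and the limits given for a count of 0 hold only in the first case. Levels are counts of 3′ ends and are compared across cell types, not between genes. In sums over cells, fewer cells with a transcript and less RNA per cell cannot be told apart.

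Atoh1, a basic helix-loop-helix factor without which the intestine forms no secretory cells, has 1 exon, on the plus strand of chromosome 6 (mm10, 64729125 to 64731245). In goblet cells it reached 212 CPM (197 to 227) in replicate 1 and 203 CPM (185 to 223) in replicate 2, the highest level of any type in both mice. Goblet progenitors had 90.3 and 75.0 CPM, and secretory progenitors had 73.8 and 62.5 CPM. These progenitor ranges did not overlap, but their counting intervals did. Paneth cells had 23.0 and 12.6 CPM, tuft cells 12.1 and 14.3 CPM, and EEC 25.8 and 0 CPM, so the order among these 3 types could not be told. Stem cells had 3.36 and 1.87 CPM, from 6 and 3 UMIs, and TA cells had 1.42 and 1.05 CPM. A single Atoh1 UMI was found in the 931 enterocytes of replicate 1, and none in the 382 of replicate 2 or in IEL.

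Spdef, an ETS factor required for goblet and Paneth cell maturation, is found on the minus strand of chromosome 17 (27714352 to 27728955). Goblet cells had 211 CPM (196 to 226) in replicate 1 and 190 CPM (172 to 208) in replicate 2. Secretory progenitors came next, with 117 and 120 CPM, and goblet progenitors had 83.9 and 90.6 CPM. Secretory progenitors were thus above goblet progenitors for Spdef and below them for Atoh1, but the counting intervals overlapped in both mice for both genes. The 3 secretory progenitors with the most UMIs of the 7 members held 38.9% and 59.3% of the Spdef UMIs. By share of cells the order for Spdef was the reverse. In cells thinned to 5000 UMIs, it was found in 22.6% and 31.6% of secretory progenitors and 32.7% and 36.9% of goblet progenitors. In Paneth cells Spdef had 22.2 and 10.3 CPM, and in EEC 22.6 and 4.64 CPM, so these overlapped. All other types averaged below 10 CPM.

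Gfi1, a zinc finger repressor that acts against the enteroendocrine fate, is found on the minus strand of chromosome 5 (107716657 to 107726036). The antisense gene A430072P03Rik overlaps it on the plus strand. Goblet cells had 29.6 CPM (24.4 to 35.6) and 24.1 CPM (18.1 to 31.5), from 112 and 54 UMIs. Secretory progenitors had 28.2 and 17.9 CPM, a range that overlaps that of goblet cells, and goblet progenitors had 9.31 and 15 CPM. IEL had 38.1 and 22.2 CPM from 10 and 5 UMIs, a range that overlaps that of goblet cells, unlike any other type outside the secretory lineage. Gfi1 is also known as a regulator of lymphocytes. No Gfi1 UMI was found in the 40 and 38 tuft cells, where a count of 0 allows up to 7.25 and 5.36 CPM in the mice.

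Foxa3, a forkhead factor that can bind closed chromatin, is found on the minus strand of chromosome 7 (19013284 to 19023538). Its level was 259 CPM (243 to 276) in goblet cells of replicate 1 and 233 CPM (213 to 254) in those of replicate 2. Secretory progenitors followed with 159 and 103 CPM, and goblet progenitors with 87.5 and 86.4 CPM. Foxa3 was also well above 0 in types where Atoh1 was low. Tuft cells had 84.6 and 57.2 CPM, EEC 69.3 and 60.3 CPM, Paneth cells 46.4 and 28.4 CPM, and stem cells 38.1 and 28.7 CPM. The tuft and EEC ranges overlapped, as did those of Paneth and stem cells. TA cells were lower, with 7.70 and 9.79 CPM, and enterocytes had 0.0516 and 1.12 CPM.

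Creb3l1 encodes a membrane-bound transcription factor of the endoplasmic reticulum that is cut free to reach the nucleus, and it is found on the minus strand of chromosome 2 (91982328 to 92024502). Goblet cells had 226 CPM (211 to 242) in replicate 1 and 265 CPM (244 to 287) in replicate 2. Secretory progenitors had 132 CPM (101 to 170) and 228 CPM (169 to 299), so in this case the range of the progenitors reached that of goblet cells. Goblet progenitors had 127 and 120 CPM. EEC had 88.6 and 41.8 CPM, above tuft cells, which had 26.6 and 26.8 CPM. In Paneth cells the level was 14.5 and 5.73 CPM. TA cells, enterocytes and stem cells had between 3.12 and 7.94 CPM, with overlapping ranges.

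Creb3l4, a relative of Creb3l1 with the same kind of membrane anchor, is found on the minus strand of chromosome 3 (90237500 to 90243512). In goblet cells it had 170 CPM (157 to 183) and 134 CPM (119 to 150). Goblet progenitors had 61.6 and 53.4 CPM, and secretory progenitors 32.6 and 31.2 CPM. Creb3l4 thus stepped up from secretory progenitors to goblet progenitors to goblet cells in both mice. Spdef and Foxa3 were lower in goblet progenitors than in secretory progenitors in both mice. Between the progenitor types the counting intervals overlapped in both mice for Spdef, and in replicate 2 for Creb3l4 and Foxa3. Paneth cells had 22.2 and 15.6 CPM, and tuft cells 9.67 and 21.4 CPM. The remaining types averaged under 5 CPM.

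Bhlha15, also known as Mist1, is a basic helix-loop-helix factor that enlarges the secretory apparatus of exocrine cells, and it is found on the plus strand of chromosome 5 (144190286 to 144194441). It was the only member whose highest mean was in Paneth cells, with 26.7 CPM (21.6 to 32.7) in replicate 1 and 16.5 CPM (12.9 to 20.8) in replicate 2. Goblet cells had 12.7 and 21.9 CPM, and these ranges overlapped. The order of the 2 types differed between the mice. Goblet progenitors had 6.51 and 11.4 CPM and secretory progenitors had 8.69 and 8.93 CPM, the latter from 4 and 2 UMIs. IEL had 2 UMIs and 1 UMI.

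**Figure D1:**
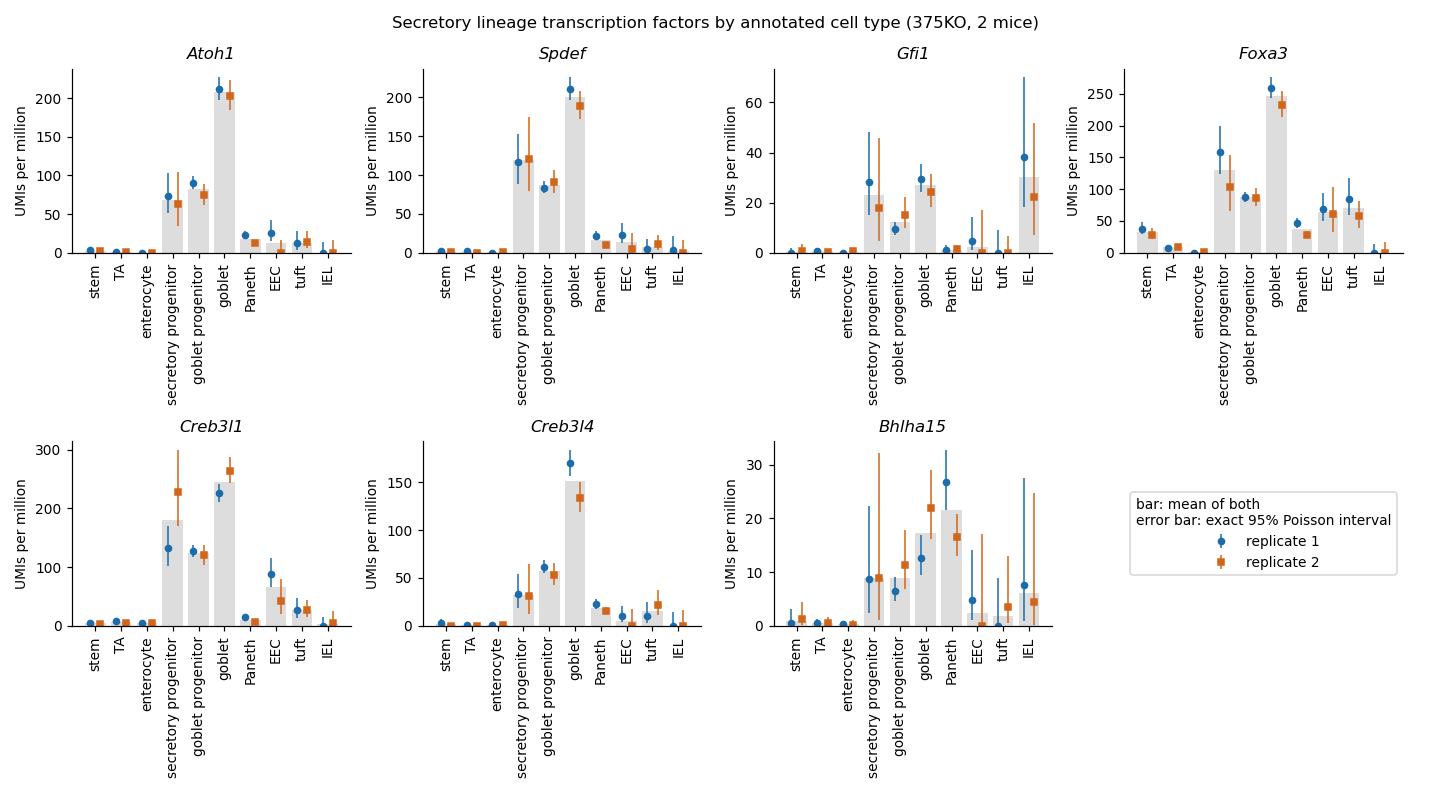
Level of each transcription factor (y axis, CPM, linear and starting at 0) in the 10 annotated types (x axis) of 2 375KO mice. Points are libraries with exact 95% Poisson intervals and grey bars are the mean of both. By mean, goblet cells lead for 5 of the 7 genes, IEL for Gfi1 and Paneth cells for Bhlha15. In replicate 2 goblet cells lie above IEL for Gfi1 and above Paneth cells for Bhlha15.

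The sequence upstream of the members was read for motifs of some of their factor families, since the members were high in the same types. No motif was searched for the ETS factor Spdef or the zinc finger factor Gfi1. RefSeq windows of 250 bases before a start (GRCm38.p6) were matched for 6 of the 7 members, all but Creb3l1. Both strands were searched for the E-boxes CAGCTG and CAGATG (bound by basic helix-loop-helix factors), the forkhead core TGTTTAC and TGACGT, a site for factors of the cyclic AMP response family. The 6 members have 9 windows, and no window held more than 1 match. CAGCTG was in 0 of the 9 windows (13% of the 32851 windows of all genes), CAGATG in 2 (14.4%), TGTTTAC in 0 (3.17%) and TGACGT in 1 (6.47%). The 3 windows with a match are shown 5′ to 3′ along the gene, with the matched bases in capitals. Spdef lies on the minus strand with its match at position -201, Bhlha15 on the plus strand with its match at -187, and Creb3l4 on the minus strand with its match at -105 of the second of 3 starts. A match is a description of the letters and not of a bound site.
Spdef, chr17:27728952-27729201: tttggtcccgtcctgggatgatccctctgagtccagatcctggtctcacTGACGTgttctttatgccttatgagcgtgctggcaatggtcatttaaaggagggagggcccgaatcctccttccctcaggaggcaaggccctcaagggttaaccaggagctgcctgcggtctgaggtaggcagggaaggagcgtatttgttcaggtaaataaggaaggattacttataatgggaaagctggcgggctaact
Bhlha15, chr5:144190036-144190285: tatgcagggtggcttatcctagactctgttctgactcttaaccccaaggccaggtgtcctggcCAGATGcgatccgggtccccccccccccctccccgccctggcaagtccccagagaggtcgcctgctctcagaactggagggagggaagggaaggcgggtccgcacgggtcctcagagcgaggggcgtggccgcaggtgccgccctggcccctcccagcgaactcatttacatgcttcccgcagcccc
Creb3l4, chr3:90243144-90243393: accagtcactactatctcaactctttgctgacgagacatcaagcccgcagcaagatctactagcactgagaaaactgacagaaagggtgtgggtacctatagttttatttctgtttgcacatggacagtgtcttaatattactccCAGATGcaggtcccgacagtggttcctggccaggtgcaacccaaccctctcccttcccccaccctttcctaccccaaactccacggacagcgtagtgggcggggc

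Paneth cells needed separate treatment, because few genes take most of their RNA. The 10 most abundant genes held 82.6% and 81.9% of Paneth UMIs, against 25.7% and 24.3% in goblet cells and at most 17.8% in any other type. Levels as a share of all UMIs and as a share of the remaining UMIs therefore differ widely in Paneth cells. TMM scaling, which sets the bulk of genes equal between types, used factors of 0.156 and 0.121 for the Paneth sums and 0.994 and 0.952 for the goblet sums. Median mitochondrial shares were 0.0907% and 0.185% in Paneth cells, against 5.78% and 3.05% in goblet cells. A stricter filter of 2000 genes and 15% mitochondrial reads kept 29 of 78 and 37 of 54 Paneth cells. It kept 258 of 277 and 138 of 138 goblet cells.

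On the TMM-scaled level, Paneth cells ranked next to goblet cells or above them for 5 members. Scaled Bhlha15 was 172 and 136 CPM in Paneth cells against 12.8 and 23.0 CPM in goblet cells. Scaled Foxa3 was 298 and 235 CPM in Paneth cells against 261 and 245 CPM in goblet cells, and scaled Creb3l4 was 143 and 129 CPM against 171 and 141 CPM. Scaled Atoh1 was 148 and 104 CPM in Paneth cells and scaled Spdef 143 and 85.3 CPM, both below the goblet levels of 213 to 214 and 199 to 212 CPM. Scaled Creb3l1 (93.2 and 47.4 CPM) and Gfi1 (7.31 and 11.4 CPM) in Paneth cells were lower than in secretory progenitors in both mice. When the 10 most abundant genes of every type were left out of the totals instead, Bhlha15 in Paneth cells averaged 130 CPM and in goblet cells 25.1 CPM. On that scale Foxa3 was lower in Paneth cells of both mice, with 274 and 175 CPM against 383 and 334 CPM in goblet cells. Creb3l4 was lower too, with 131 and 95.9 CPM against 251 and 192 CPM. How Foxa3 and Creb3l4 of Paneth cells stand to those of goblet cells therefore depends on the scaling.

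**Figure D2:**
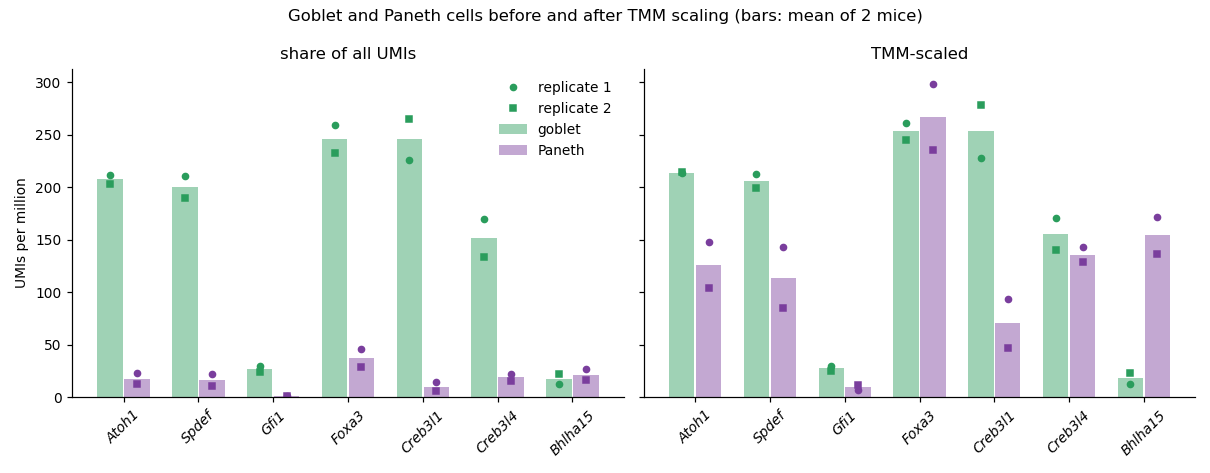
Level in goblet (green) and Paneth (purple) cells as a share of all UMIs (left) and after TMM scaling (right), in CPM, with the mean of 2 mice as bars and the libraries as points. On the left 6 of the 7 genes are far higher in goblet cells, and on the right Foxa3 and Creb3l4 are at similar levels and Bhlha15 is higher in Paneth cells.

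The comparison of secretory with non-secretory types asked how far the members mark the secretory side as a whole. Sums of secretory progenitors, goblet progenitors, goblet cells, Paneth cells and EEC were set against those of stem cells, TA cells and enterocytes, with the mouse as a block, in a quasi-likelihood fit (edgeR) to 18 sums. Tuft cells were on neither side. All 7 members were higher in the secretory types. Among the 11013 genes tested, 15.9% were called higher and 22.4% lower. The median log2 fold change of the members was 5.17, against -0.07 over all genes tested. Atoh1 had a log2 fold change of 6.93 (SE 0.30, edgeR adjusted p = 8.3e-18) and Spdef of 6.46 (SE 0.39). Creb3l1 was higher by 4.64 (SE 0.20, edgeR adjusted p = 3.69e-14) and Bhlha15 by 4.74 (SE 0.58). The order of the members differed between the mice, with Atoh1 at 5.69 and 4.84, Spdef at 5.53 and 5.91, Creb3l1 at 4.36 and 4.56, and Bhlha15 at 3.82 and 3.38. Every member differed in the same direction in each mouse, by 3.82 to 5.69 on the log2 scale in replicate 1 and by 3.04 to 5.91 in replicate 2, calculated with a prior count of 2.

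Other regulators of secretory fate rose less uniformly. Of 17 tested, 9 were higher, 1 was lower and 7 did not pass, with a median log2 fold change of 1.55. Nkx2-2, an enteroendocrine factor, was higher by 3.87 (SE 0.88), Dll4, a Notch ligand, by 3.78 (SE 0.27), and Klf4, a zinc finger factor of goblet cells, by 3.31 (SE 0.16). The lower gene was Hes1, the Notch effector that represses Atoh1, which fell by 1.14 on the log2 scale (edgeR adjusted p = 8.03e-07). Of 18 tested genes of the endoplasmic reticulum and vesicle pathway, 17 were higher and none was lower. They included Ern2, a sensor of unfolded protein found in mucous cells (log2 fold change 5.60), and Kdelr3, a retrieval receptor (4.23). Of the list of mucus granule effectors, which is wider than mucus proteins and takes in Clps (colipase), 9 of 11 tested were higher. Clps led them, with 0 CPM in stem cells of both mice, so its level in Paneth cells (5887 and 6156 CPM) is given in place of a fold. Agr2, an isomerase needed for mucin folding, followed with 9.31 (SE 1.45) and Spink4, a small secreted protein of goblet cells, with 8.20. The Agr2 value was 7.98 in replicate 1 and 10.98 in replicate 2. Stem cells, TA cells and enterocytes of replicate 2 had 0 UMIs of Agr2, so its size there depends on the prior count. The paralogs divided: Foxa2 (3.74, SE 0.18) and Foxa1 (2.32, SE 0.17) were higher, and Creb3l2 was higher by 1.06 (SE 0.36, edgeR adjusted p = 0.0192). Creb3l3 was called lower (edgeR adjusted p = 3.64e-06), with 247 and 157 CPM in enterocytes, 3.97 and 4.47 CPM in goblet cells, and 0 in Paneth cells.

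Secretory progenitors were set against TA cells to see which members were raised in cells annotated as secretory progenitors. All 7 were higher, where 5.46% of genes were called higher and 4.44% lower. The median log2 fold change of the members was 5.23, against -0.09 over all genes. Spdef was higher by 6.35 (SE 0.48, edgeR adjusted p = 2.78e-08), rising from 2.37 and 0.175 CPM in TA cells to 117 and 120 CPM. Atoh1 was higher by 5.76 (SE 0.42), Creb3l4 by 5.46 (SE 0.70) and Gfi1 by 5.23 (SE 0.77). Foxa3 was higher by 3.99 (SE 0.33, edgeR adjusted p = 4.97e-09), with 7.70 and 9.79 CPM already present in TA cells. Bhlha15 was higher by 4.08 (SE 1.01, edgeR adjusted p = 0.00719), and this rested on 6 UMIs in secretory progenitors. In cells thinned to 5000 UMIs its call was lost (edgeR adjusted p = 0.115, with 5.48e-05 to 0.115 over its alternatives).

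Among the other fate regulators, 12 of 17 were higher and none was lower. Neurog3, which specifies enteroendocrine cells, was higher by 8.02 (SE 0.54), with 330 and 558 CPM in secretory progenitors, and Insm1 and Nkx2-2, further enteroendocrine factors, were higher by 5.84 and 5.31. The annotated secretory progenitors thus held enteroendocrine regulators beside the members. Goblet markers summed to 14813 and 24102 CPM in them, and cells rich in these markers were not left out of this type. Dll1 was higher by 4.94 (SE 0.32) and Hes1 differed by -0.24 (SE 0.32, edgeR adjusted p = 0.73). From the mucus granule effector list 5 of 11 were higher, including Clps (8.71), Tff3, a trefoil peptide (7.03), and Clca1, a mucus protease (5.71). The endoplasmic reticulum and vesicle genes were higher in 9 of 18, including Ern2 (4.78) and Kdelr3 (3.77). Foxa2 (3.64, SE 0.33) and Foxa1 (1.81, SE 0.43) were higher, and Kdm1a, a demethylase that works with Gfi1, by 1.44 (SE 0.26). Creb3l2 (-0.34, SE 1.03) and Creb3l3 (-0.24, SE 0.70) did not pass.

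Goblet cells were set against goblet progenitors, the step of goblet maturation. All 7 members were higher in goblet cells, by a narrow range of log2 fold changes from 1.48 for Creb3l1 (SE 0.24, edgeR adjusted p = 5.97e-05) to 2.00 for Foxa3 (SE 0.23, edgeR adjusted p = 3.49e-07). The median was 1.77, against 0.01 over all genes, where 16.0% were called higher and 13.2% lower. Atoh1 was higher by 1.83 (SE 0.20), Creb3l4 by 1.90 (SE 0.24), Spdef by 1.70 (SE 0.26), Gfi1 by 1.77 (SE 0.35) and Bhlha15 by 1.52 (SE 0.34). Each member was higher in goblet cells in each mouse, with the smallest difference for Gfi1 in replicate 2 (1.09). On the unscaled level Atoh1 went from 90.3 to 212 CPM in replicate 1 and from 75.0 to 203 CPM in replicate 2. Without the mouse as a block, Gfi1 lost its call (edgeR adjusted p = 0.0789, with 3e-07 to 0.0789 over its alternatives), and after thinning Bhlha15 did (edgeR adjusted p = 0.0583, with 5.64e-05 to 0.0583).

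All 18 endoplasmic reticulum and vesicle genes tested were higher in goblet cells, with a median log2 fold change of 1.52. Rab27a, a small GTPase of secretory granules, was higher by 2.40 (SE 0.30) and Kdelr3 by 2.26 (SE 0.21). Copz2, a coat protein subunit, was higher by 3.07 (SE 0.54) from 4 and 3 UMIs in goblet progenitors. In contrast, the other fate regulators split into 5 higher and 4 lower of 17. Klf4 (1.62) and Xbp1, a factor of the unfolded protein response (1.20), were among the higher ones. Insm1, Neurog3 and Sox4 were lower, by log2 fold changes of -4.64, -4.48 and -1.92, and Hes1 was lower by -1.12. From the mucus granule effector list 4 of 11 passed, among them Clps (3.15, SE 0.70), Clca1 (2.55, SE 0.54) and Galnt12, which starts mucin glycosylation (1.80, SE 0.19). Muc2, the main gel-forming mucin of the intestine, had a log2 fold change of 1.96 with an SE of 0.79 and did not pass (edgeR adjusted p = 0.105). Foxa1, Creb3l2 and Creb3 were higher, by 1.24 (SE 0.23), 1.30 (SE 0.30) and 1.02 (SE 0.21), while Foxa2 (0.55, SE 0.24) and Creb3l3 (-0.58, SE 0.44) did not pass.

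Goblet cells differed from Paneth cells in only some of the members. On the TMM scale Creb3l1 (log2 fold change 1.84, SE 0.29, edgeR adjusted p = 9.67e-05), Gfi1 (1.60, SE 0.56, edgeR adjusted p = 0.0447), Spdef (0.86, SE 0.30, edgeR adjusted p = 0.0498) and Atoh1 (0.77, SE 0.22, edgeR adjusted p = 0.0117) were higher in goblet cells. Bhlha15 was lower in goblet cells, with a log2 fold change of -3.18 (SE 0.29, edgeR adjusted p = 8.61e-10). Foxa3 (-0.07, 2 SE range -0.53 to 0.39) and Creb3l4 (0.20, 2 SE range -0.32 to 0.72) did not pass. Over all genes 9.90% were called higher and 8.92% lower, and the median of the members was 0.77 against 0.02.

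The calls for Atoh1, Spdef and Gfi1 did not hold in every fit. A Wald test in DESeq2 gave them adjusted p of 0.0666, 0.189 and 0.0781, and without the mouse as a block edgeR gave adjusted p of 0.269, 0.344 and 0.215. Over all alternatives their adjusted p ranged from 1.41e-15 to 0.269 for Atoh1, 1.75e-09 to 0.344 for Spdef and 7.35e-10 to 0.9 for Gfi1. In thinned cells Atoh1 and Spdef were at 1.43 and 1.56 and Gfi1 at 0.36. The median of all genes also moved there, from 0.02 to 0.62, so the larger values for Atoh1 and Spdef go with a shift of all genes. Scaling by library totals alone moved the median of all genes to 2.79, with 99.1% of the called genes higher in goblet cells (52.6% with TMM). In that scale Foxa3 and Creb3l4 were called higher in goblet cells and Bhlha15, at -0.37, was no longer called. Relative to that median Bhlha15 remained the lowest member. Creb3l1 was called higher in goblet cells in all 7 alternatives.

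Other genes of the lists divided between the 2 types. Dll1 (3.15, SE 0.42) and Klf4 (2.13, SE 0.26) were higher in goblet cells, and Sox9, which is required for Paneth cells, was lower by -1.79 (SE 0.23). Tcf12 and Tcf4, partners of basic helix-loop-helix factors, were lower in goblet cells by -2.36 (SE 0.24) and -1.94 (SE 0.37), and Rcor1, a corepressor, was higher by 1.53 (SE 0.46). Among endoplasmic reticulum and vesicle genes, 7 of 18 were higher in goblet cells, such as Pdia4, a disulfide isomerase (2.18), and Creld2 (1.49), and 4 were lower, such as Copz2 (-5.09). Of 11 mucus granule effectors 5 were higher and 2 lower, with Ang4, an antimicrobial ribonuclease of Paneth cells, at 10630 and 10490 CPM in Paneth cells and 36.0 and 79.1 CPM in goblet cells. Clca1 was higher by 8.53 (SE 0.95). Zg16, a lectin of mucus, was listed with 0 UMIs in Paneth cells of both mice and 83470 and 57450 CPM in goblet cells, and that 0 cannot be told apart from one left by the subtraction of free RNA. Foxa1 (0.06), Foxa2 (-0.75), Creb3l2 (-0.90) and Creb3l3 (25 UMIs in goblet and 0 in Paneth cells) did not pass.

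Against EEC, all 7 members were higher in goblet cells. The median log2 fold change was 3.55, against -0.05 over all genes, of which 14.1% were called higher and 14.4% lower. Creb3l4 was higher by 5.12 (SE 0.49, edgeR adjusted p = 1.14e-08), Spdef by 4.21 (SE 0.44) and Atoh1 by 4.20 (SE 0.33). The sizes and their order differed between the mice, with 4.69 and 8.10 for Creb3l4, 3.84 and 5.75 for Spdef and 3.66 and 8.70 for Atoh1 in replicate 1 and replicate 2. EEC of replicate 2 had 0 UMIs of Atoh1 and Creb3l4 and 1 UMI of Spdef, so its values depend on the prior count of 2. In EEC of replicate 1 most UMIs of these 3 genes lay in 3 cells rich in goblet markers, and without cells rich in those markers Atoh1 went from 25.8 to 7.0 CPM and Spdef from 22.6 to 2.33 CPM. Gfi1 (3.55, SE 0.74) and Bhlha15 (2.80, SE 0.72) each rested on 3 UMIs in EEC of replicate 1 and 0 in those of replicate 2. For Bhlha15 the counting intervals of the unscaled levels in EEC and goblet cells overlapped in both mice. Foxa3 and Creb3l1, which had UMIs in EEC of both mice, were higher in goblet cells by 2.56 (SE 0.30) and 2.40 (SE 0.31). Enteroendocrine regulators went the other way. Neurod1 and Rfx6 had 0 UMIs in goblet cells and were at least 984-fold and 305-fold higher in EEC, taking 3 counts over both libraries as the limit, and Insm1 was lower in goblet cells by -10.07 (SE 0.47). Of the other fate regulators 5 were higher and 6 lower of 17, and 15 of 18 endoplasmic reticulum and vesicle genes were higher in goblet cells, led among those with UMIs in both types by Kdelr3 (6.31) and Ern2 (3.44). Copz2 had 0 UMIs in EEC. Mucus granule effectors were higher in 9 of 11, with Zg16 at 9.42 (SE 2.51), Spink4 at 6.43 (SE 1.62) and Clca1 at 6.32 (SE 0.76). These sizes differed between replicate 1 and replicate 2, with 7.88 and 16.84 for Zg16, 5.19 and 11.09 for Spink4, and 5.92 and 8.83 for Clca1. In EEC of replicate 2, 2 of the 6 goblet markers were at 0, which may be left by the subtraction of free RNA. In the paralogs list Atf6, a stress sensor of the endoplasmic reticulum, was lower in goblet cells by -1.45 (SE 0.28), Kdm1a by -1.38 (SE 0.24) and Tcf4 by -1.14 (SE 0.40), while Foxa1 (0.19), Foxa2 (-0.71), Creb3l2 (0.03) and Creb3l3 (-0.62) did not pass.

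**Figure D3:**
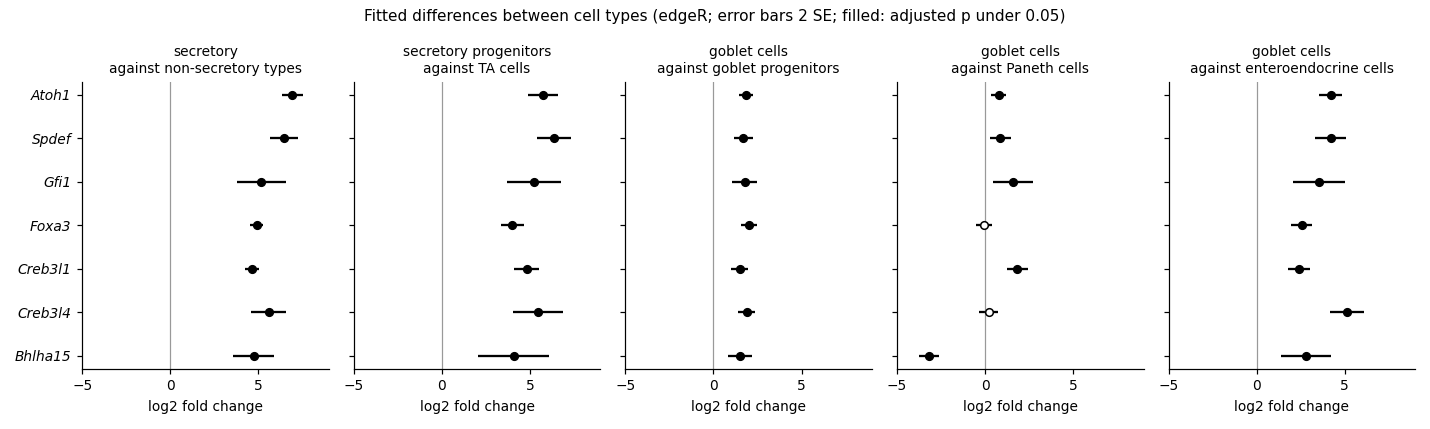
Log2 fold changes (x axis) of the 7 genes (y axis) in the 5 comparisons, from edgeR on 18 sums of 2 mice, with error bars of 2 SE and filled points where the adjusted p is under 0.05. All genes lie right of 0 except in goblet against Paneth cells, where Bhlha15 lies at -3.18 and Foxa3 and Creb3l4 lie near 0.

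Levels outside the goblet lineage were examined cell by cell, because cells of other types held goblet transcripts. In EEC of replicate 1, the 3 of 54 cells with the most UMIs of the 7 members held 13 of 16 Atoh1 UMIs, 13 of 14 Spdef UMIs, 3 of 3 Gfi1 UMIs and 5 of 6 Creb3l4 UMIs. They held 13 of 43 Foxa3 UMIs and 27 of 55 Creb3l1 UMIs. The summed level of 6 goblet markers (Muc2, Tff3, Fcgbp, Clca1, Zg16 and Agr2) was 8002 to 73127 CPM in these cells and 600 CPM in the median EEC of that library. Over all EEC, the goblet markers summed to 6032 and 2122 CPM, with 0 and 2 of them at 0.

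Cells above 5000 CPM of goblet markers were then left out, a limit chosen after the data were seen. This removed 12 and 2 EEC, 3 and 5 tuft cells, and 4 and 2 stem cells. In the remaining EEC, Atoh1 fell from 25.8 to 7.0 CPM in replicate 1 and stayed at 0 in replicate 2, Spdef was 2.33 and 0 CPM, and Gfi1 was 0 in both. Foxa3 was 60.7 and 45.5 CPM, and Creb3l1 was also 60.7 and 45.5 CPM. Remaining tuft cells had 83.6 and 39.4 CPM of Foxa3, 20.9 and 14.5 CPM of Creb3l1, and 5.23 and 4.15 CPM of Atoh1. In stem cells Foxa3 was 38.3 CPM (29.6 to 48.8) and 28.1 CPM (20.4 to 37.7), found in 45 of 135 and 36 of 115 cells, while Atoh1 was 2.32 and 1.92 CPM. Foxa3 in all 3 types, and Creb3l1 in EEC, were thus still found when cells above this limit were left out, though the remaining cells could hold goblet markers below it.

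**Figure D4:**
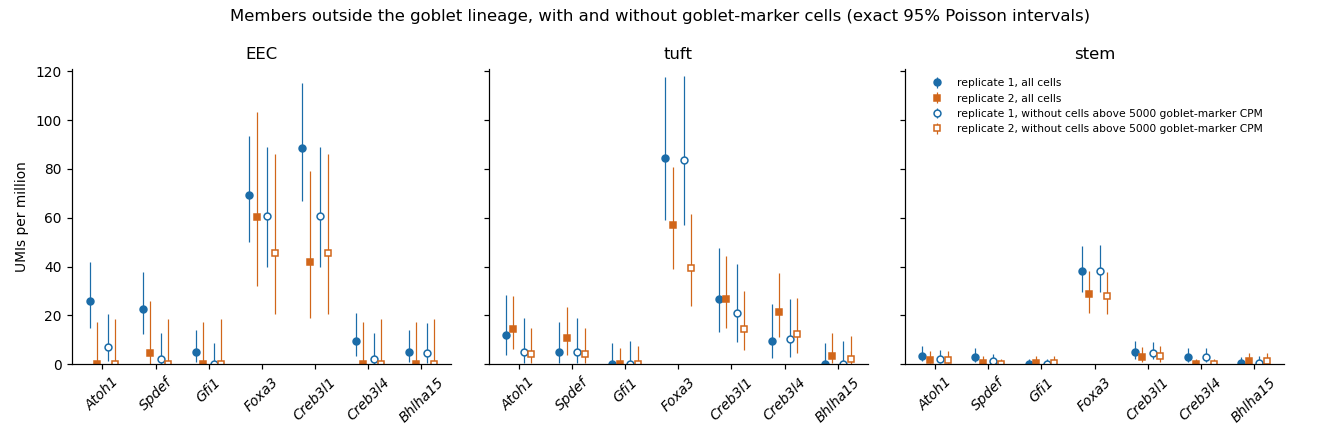
Level of each gene (y axis, CPM) in EEC, tuft and stem cells, for all cells (filled) and without cells above 5000 CPM of goblet markers (open), with exact 95% Poisson intervals. Open points of Foxa3 stay between 28.1 and 83.6 CPM in the 3 types, and those of Atoh1 are at or below 7.0 CPM.

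Within TA cells, Foxa3 was uneven between the deposited clusters. Cluster 13, with 53 cells in each mouse, had 20.7 CPM (14.3 to 28.9) and 34.9 CPM (24.0 to 49.0). The other 3 TA clusters had 2.24 to 9.90 CPM. Atoh1 in cluster 13 was 3.65 and 4.23 CPM, against 0 to 1.68 CPM in the others. Creb3l1 was raised there in replicate 1 (17.6 CPM) but not in replicate 2 (3.17 CPM). Within IEL, Gfi1 was 61.6 and 27.9 CPM in cluster 11 and 0 and 19.5 CPM in cluster 14, from 10, 2, 0 and 3 UMIs. The counting intervals of these clusters overlapped in both mice. Plasma cell markers summed to 126 and 5425 CPM in IEL and myeloid markers to 1923 and 93.2 CPM, and the part of these cells in the Gfi1 and Bhlha15 levels of IEL was not tested.

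Most goblet cells held several members. A goblet cell had UMIs of 4.91 of the 7 members on average in replicate 1 and 5.11 in replicate 2. Goblet progenitors averaged 4.60 and 3.64, secretory progenitors 3.13 and 2.53, and enterocytes 0.105 in both. Depth differs between types, with a median of 13649 and 15709 UMIs in goblet cells, 28555 and 19683 in goblet progenitors and 44684 and 80820 in Paneth cells. After each cell was thinned to 5000 UMIs, goblet cells averaged 3.22 and 3.26 members, goblet progenitors 1.98 and 1.69, secretory progenitors 1.90 and 1.74, and Paneth cells 0.718 and 0.463, where they had 3.76 and 3.52 before thinning. At equal depth, 40.9% and 44.9% of goblet cells had 4 or more members, against 13.6% and 11.9% of goblet progenitors, 19.4% and 21.1% of secretory progenitors and 0% of Paneth cells. Before thinning, 65.4% and 55.6% of Paneth cells had 4 or more. Since the 10 most abundant genes held 82.6% and 81.9% of Paneth UMIs, the thinned Paneth cells kept fewer UMIs of all other genes than thinned goblet cells did.

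Before thinning, Atoh1 was found in 86.6% and 88.4% of goblet cells, 83.3% and 57.1% of goblet progenitors and 48.4% and 42.1% of secretory progenitors. After thinning these shares were 62.3% and 58.0%, 38.9% and 27.4%, and 22.6% and 26.3%. In IEL, which should lack it and had median depths of 4110 and 10226 UMIs, it was found in 0 of 50 and 0 of 18 cells, which allows up to 6% and 16.7%. Spdef was in 59.1% and 52.9% of thinned goblet cells, Foxa3 in 67.4% and 66.7%, Creb3l1 in 61.6% and 68.1% and Creb3l4 in 54.0% and 52.2%. Gfi1 and Bhlha15 were sparse, in 12.3% and 15.2% and in 5.07% and 13% of them. Paneth cells had Bhlha15 in 64.1% and 61.1% of cells before thinning and in 19.2% and 11.1% after it.

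**Figure D5:**
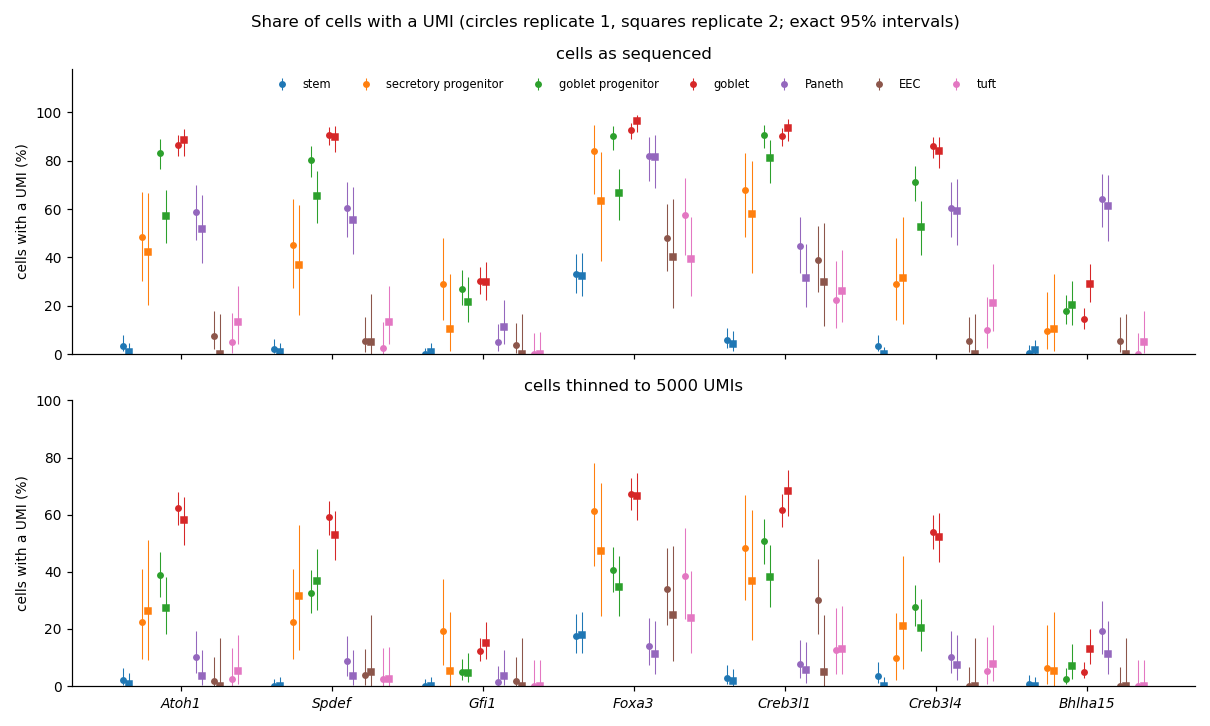
Share of cells with at least 1 UMI (y axis, percent) of each gene (x axis) in 7 types, as sequenced (top) and after thinning to 5000 UMIs per cell (bottom), with exact 95% intervals. Thinning lowers Paneth cells for Atoh1 from 59.0% and 51.9% to 10.3% and 3.70%, and leaves goblet cells highest for Atoh1, Spdef, Foxa3, Creb3l1 and Creb3l4.

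Atoh1 and Spdef were then read in the same cells. In thinned goblet cells of replicate 1, Spdef was in 57.6% of the 172 cells with Atoh1 and 61.5% of the rest, and in replicate 2 in 62.5% of 80 and 39.7% of the rest. These differences point in opposite directions. Among thinned secretory progenitors, Foxa3 was in all 7 cells with Atoh1 and 50.0% of the rest in replicate 1, and in all 5 and 28.6% of the rest in replicate 2. Spdef was in 4 of these 7 and 4 of these 5 cells, against 12.5% and 14.3% of the rest. The cells are few, and no test was made on cells.

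Across the 18 sums, the log2 TMM-scaled levels of the members rose and fell together, with Pearson's r between 0.69 (Gfi1 and Foxa3) and 0.96 (Atoh1 and Creb3l4). These correlations are descriptions, since the 18 points come from 2 libraries and from types defined on these genes among others. The genes most like Atoh1 were Creb3l4 and Spdef (both r = 0.96) and Gcnt3, a mucin glycosyltransferase (0.95). Spdef was most like Ern2 (0.98), Gcnt3 (0.97) and Slc12a8 (0.97), and Gfi1 most like Slc12a8 (0.92), Txndc5, a disulfide isomerase (0.92), and Spdef (0.91). Creb3l1 was most like Txndc5 (0.97), Cbfa2t3 (0.96) and Ern2 (0.96), and Creb3l4 most like Spink4 (0.97), Rep15 (0.97) and Mlph (0.96). Foxa3 was most like the potassium channel Kcnk1 (0.95), Fxyd3 (0.95) and Csrp1 (0.94). Bhlha15 was most like Qsox1, a sulfhydryl oxidase (0.93), Tulp4 (0.92) and Rnase1 (0.92).

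Between the mice, differences in goblet cells were small for 6 members, where the higher library exceeded the other by 1.04-fold for Atoh1, 1.11-fold for Spdef and Foxa3, 1.17-fold for Creb3l1, 1.23-fold for Gfi1 and 1.27-fold for Creb3l4. Bhlha15 differed by 1.73-fold, with replicate 2 higher. In Paneth cells 6 of the 7 members were higher in replicate 1, by 1.42-fold for Creb3l4 to 2.53-fold for Creb3l1, and Gfi1 was 1.21-fold higher in replicate 2. With 1 library per mouse these differences were not tested. The goblet gene Agr2 also differed: it had 0 UMIs in stem cells, TA cells and enterocytes of replicate 2, and 90, 815 and 46 UMIs in those of replicate 1. Whether the removal of free RNA acted alike on the members in both libraries was not tested.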

How the data were processed

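Jejunal crypt cells of 2 male 375KO mice were profiled with 10x Genomics 3′ v2 chemistry. The authors aligned reads to mm10 with Cell Ranger (3.0.1 in the labels) and deposited matrices of UMI counts for 27998 genes. Ambient RNA was subtracted by SoupX according to the methods, which do not say in which deposited file; 2.56% and 4.19% of the matrix entries are listed at 0. They removed doublets called by scDblFinder (346 of 5095 and 38 of 1245 barcodes examined) and cells under 1500 genes or over 25 percent mitochondrial reads, and the deposited annotation gives that percent per cell, which set the stricter filter. The deposited sctransform scores were not used.

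The annotation carries no barcodes and was joined by cell order to the deposited counts after doublet removal. There 3275 of 3275 cells had equal UMI totals and numbers of detected genes. Their columns in the matrices were then found by barcode, a step that these totals do not check. Not used were 2937 cell columns per table and 6059 doublet rows of another series. The kept cells held 44017234 and 22163354 UMIs. Counts were summed per library and type (none under 10 cells), filtered with filterByExpr, scaled with TMM and fitted with robust quasi-likelihood tests in edgeR 4.0.16, with cell type and mouse as terms. Tests were two-sided, adjusted by the Benjamini-Hochberg method over 11013 genes, threshold 0.05. Residual degrees of freedom were 8, from 2 mice and the assumption that types share 1 spread per gene. IEL were left out of the fits. All sums of 1 library come from the same mouse, and the deviations of the libraries correlated above 0.1 in 36 of 36 pairs of types (lowest 0.119, median 0.313). SE was taken as the log2 fold change over the square root of F. Shares carry exact Clopper-Pearson 95% intervals, and the limit set by a count of 0 was taken as 3 counts. Intervals and limits cover counting error only, and p-values rest on 2 mice. On simulated counts for goblet cells against goblet progenitors (10884 genes), 67% of 2-fold and 98% of 4-fold changes were recovered, with 5.71% false calls. These counts were drawn without an effect of the mouse, unlike the data, and changes were planted only in genes above a minimum level in goblet cells. The rates may therefore not hold for sums that share a mouse or for genes of low level.

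Positions come from GENCODE M21 and are counted from 1. The 7 members and all gene lists were chosen with earlier results of these data known. Named from each list and comparison were up to 3 genes with the largest log2 fold change among those past the threshold with the same sign in both mice, the paralogs Foxa1, Foxa2, Creb3l2 and Creb3l3, and the 3 genes most correlated with each member. Hes1, Xbp1, Muc2, Klf4 against goblet progenitors, Dll1 in secretory progenitors and Agr2 in the comparison of the mice were named after their values were seen. A gene that the rule names is not reported here. Alternatives were DESeq2 1.42.0 (Wald test, and its size factors in edgeR), library totals alone, no filter on low counts, no mouse block, no Paneth sums, cells thinned to 5000 UMIs, a filter of 2000 genes and 15% mitochondrial reads (1598 and 1153 cells), and each replicate left out.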

Additional observations from a re-analysis of the deposited data

Results flagged for a closer look

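Barcodes outside the comparisons also held the 7 transcription factors. In the 346 barcodes of replicate 1 that the authors called doublets, the summed level of the 7 was 242.9 CPM, where a count of 0 allows up to 0.358 CPM. In the 38 such barcodes of replicate 2 it was 210.9 CPM, with a limit of 2.64 CPM. Both values exceeded those of the kept cells as a whole, 185 and 179 CPM. Other barcodes that were not kept had 77.14 CPM over 5237 barcodes of replicate 1 and 64.21 CPM over 20 barcodes of replicate 2. Bhlha15 differed most between doublets and kept cells, with 24.0 and 14.9 CPM against 4.48 and 6.81 CPM. Gfi1 in the other barcodes of replicate 1 was 11.4 CPM (9.59 to 13.5), above its 4.52 CPM in kept cells. With 2 libraries no group was large enough to examine for outlying samples.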

How the results depend on the processing

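Among the 5 comparisons, the direction of every called member was kept under each alternative that could estimate it. Of the 56 fits per comparison that changed 1 choice, 56 kept both direction and side of the threshold for goblet cells against EEC, 55 for secretory progenitors against TA cells, and 54 for secretory against non-secretory types and for goblet cells against goblet progenitors. Of 49 for goblet against Paneth cells, 34 did. That comparison could not be made without the Paneth sums. The losses in the first 4 were as follows. In thinned cells secretory against non-secretory types gave no usable estimate for Creb3l4 (3.21, SE 3830) and Bhlha15 (3.44, SE 7167), with 0 UMIs of either gene left in EEC (both edgeR adjusted p = 1), and Bhlha15 had 3.58 against TA cells and 1.57 against goblet progenitors. Without the replicate block Gfi1 had 1.68 against goblet progenitors.

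For goblet against Paneth cells, the losses were Atoh1 at 0.75 and Spdef at 0.85 and Gfi1 at 1.57 with the DESeq2 Wald test, Spdef at 0.83 with DESeq2 size factors (edgeR adjusted p = 0.0585), Atoh1 at 0.76, Spdef at 0.85 and Gfi1 at 1.57 without the replicate block, and Gfi1 at 0.36 in thinned cells and 1.55 with the stricter cell filter. With library totals alone Bhlha15 was at -0.37, and Creb3l4 passed at 3.01. Foxa3, not called in the fit reported, turned positive with library totals alone (2.74), no filter on low counts (0.0673), thinned cells (0.64) and the stricter filter (0.14). The medians of all genes in these fits were 2.79, 0.058, 0.62 and 0.13. Adjusted p over the alternatives ranged from 1.41e-15 to 0.269 for Atoh1, 1.75e-09 to 0.344 for Spdef, 7.35e-10 to 0.9 for Gfi1 and 2.5e-27 to 0.266 for Bhlha15.

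Numbers of genes called changed by over 1.5 times in these cases. For secretory against non-secretory types 4218 became 7334 with library totals alone, 2749 without the replicate block and 2618 in thinned cells. For secretory progenitors against TA cells 1090 became 372 without the block. For goblet cells against goblet progenitors 3208 became 1044 without the block and 1662 in thinned cells. For goblet against Paneth cells 2072 became 9517 with library totals alone, 841 without the block and 641 in thinned cells, of which 80.5% were higher against 52.6%. For goblet cells against EEC 3138 became 1807 without the block. Library totals alone moved the median of all genes to -0.62, -0.12, -0.49, 2.79 and -0.70 in the 5 comparisons, and the share of higher calls in secretory against non-secretory types from 41.5% to 10.6%, in goblet cells against goblet progenitors from 54.8% to 15.8% and against EEC from 49.4% to 14%. In secretory progenitors against TA cells that share went from 55.1% to 69.5% with the DESeq2 Wald test.

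Mean levels in goblet cells rose when the most abundant genes were left out of the totals, to 302 CPM for Atoh1, 292 for Spdef, 39.2 for Gfi1, 359 for Foxa3, 357 for Creb3l1, 221 for Creb3l4 and 25.1 for Bhlha15, and TMM scaling gave 214 for Atoh1. Bhlha15 in Paneth cells averaged 154 CPM with TMM scaling and 130 without the abundant genes. Thinning lowered the mean share of goblet cells with a UMI to 60.1% for Atoh1, 56.0% for Spdef, 13.8% for Gfi1, 67.0% for Foxa3, 64.9% for Creb3l1, 53.1% for Creb3l4 and 9.06% for Bhlha15. With either mouse left out, which gives a value without a test, each called member kept its direction. Foxa3 in goblet against Paneth cells, which was not called, ranged from -0.19 to 0.06. The cause of the changes in calls was not tested.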
